A study of Mus musculus with 6 samples.

Results

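The liver of untreated mice was compared between 2 time points of one experiment, after 4 months and after 2 months on a control liquid diet. The control mice were 129/Sv males, 6 to 8 weeks old when feeding began, and received an isocaloric diet with maltose dextran in place of the 4% ethanol given to the alcohol group. Liver RNA of 6 control mice was pooled at each time, and the same was done for 6 alcohol-treated mice. The 2 pools of a month were labeled with Cy3 and Cy5 and hybridized together on 2 Agilent arrays with the dyes exchanged, and pools of 1 month lay on another slide. The control channel of the 4 arrays of 2 and 4 months was used here, out of 6 arrays in the series. Of 41174 probes on the array, 31628 were well above background in the control channel on all 4 arrays and were kept.

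The liver makes cholesterol and fatty acids from acetate units, and the genes of both pathways are driven by the SREBP transcription factors, with SREBP2 acting mainly on cholesterol genes when cell sterols are low. Cytochromes P450 of families 1 to 3 oxidize drugs and steroids and respond to the nuclear receptors CAR and PXR. Acute phase proteins such as serum amyloid A are made by hepatocytes during inflammation, and heat shock proteins fold other proteins.

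The promoter sequences of called sterol genes are shown because Hmgcs1, Idi1 and Insig1 were higher together in the 4-month control pool. The 250 bases before the start of each gene are from RefSeq on GRCm38.p6, written 5′ to 3′ along the gene, with capitals marking the letters CCAAT or TCACNCCA found on either strand; the CCAAT box binds the factor NF-Y and TCACNCCA is a core of the sterol regulatory element.
Hmgcs1 (chr13:119690101-119690350, plus strand): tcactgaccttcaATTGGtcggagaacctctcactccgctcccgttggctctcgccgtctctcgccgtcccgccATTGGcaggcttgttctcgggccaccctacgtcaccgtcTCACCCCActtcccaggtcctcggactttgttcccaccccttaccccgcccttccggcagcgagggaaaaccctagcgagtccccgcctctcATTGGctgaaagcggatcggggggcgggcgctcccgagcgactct
Idi1 (chr13:8885356-8885605, plus strand): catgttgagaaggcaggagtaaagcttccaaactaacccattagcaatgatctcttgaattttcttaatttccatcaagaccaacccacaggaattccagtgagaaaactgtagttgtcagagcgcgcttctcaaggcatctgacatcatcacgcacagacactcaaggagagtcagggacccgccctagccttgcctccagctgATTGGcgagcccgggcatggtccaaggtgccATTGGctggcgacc
Insig1 (chr5:28071162-28071411, plus strand): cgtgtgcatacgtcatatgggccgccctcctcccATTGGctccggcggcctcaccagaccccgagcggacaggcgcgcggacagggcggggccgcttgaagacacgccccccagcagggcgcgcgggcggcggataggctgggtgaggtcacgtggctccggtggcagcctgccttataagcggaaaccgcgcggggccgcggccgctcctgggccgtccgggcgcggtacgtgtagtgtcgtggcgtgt
The Hmgcs1 promoter held CCAAT 3 times and TCACNCCA 1 time, the Idi1 promoter held CCAAT 2 times and the Insig1 promoter 1 time. Of 26 genes on the list of cholesterol synthesis and uptake, 18 had a promoter entry, of which 16 held CCAAT and 3 held TCACNCCA. Among all 32851 promoter windows of the same length, 33.8% held CCAAT and 3.67% held TCACNCCA. These are letter matches only, and a match is not a measured binding site.

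Each channel was divided by its 75th percentile over all probes and expressed as log2, which is called the level. The 4-month level minus the 2-month level, the shift, was taken within a dye and averaged over the 2 dyes, with the SD of the 2 dyes as its error (n = 2 arrays a month). This SD is technical, since the 2 arrays of a month hold the same pool. No test across mice was possible with 1 pool a month, so no p-value is given and a difference between mice and a difference between months cannot be told apart. The number of arrays limits the precision. Age and the months on the liquid diet also cannot be told apart. Between 78.7% and 86.6% of the probes were well above background in the 4 control channels, and the 75th percentile of the signal was 1669 and 1293 at 2 months and 2594 and 2046 at 4 months (Cy3 and Cy5). Over all kept probes 27.2% of shifts were above 0 in both dyes and 28.4% below 0 in both, shares to be set beside the counts of list members. Across the kept probes the median shift was -0.01 and the central 90% of shifts lay between -0.68 and 0.64.

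A probe was called higher or lower at 4 months when its mean shift was at least 2-fold and both dyes lay on the same side. By this rule 274 probes (0.866%) were called higher and 560 (1.77%) lower, and they carry 141 and 303 RefSeq-matched genes. At least 2-fold in each dye alone was reached by 102 (0.322%) and 240 (0.759%), and at least 1.5-fold in the mean with both dyes on the same side by 1879 (5.94%) and 1851 (5.85%). In bulk liver, fewer cells of a type and less RNA per cell cannot be told apart for any of these genes.

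**Figure D1:**
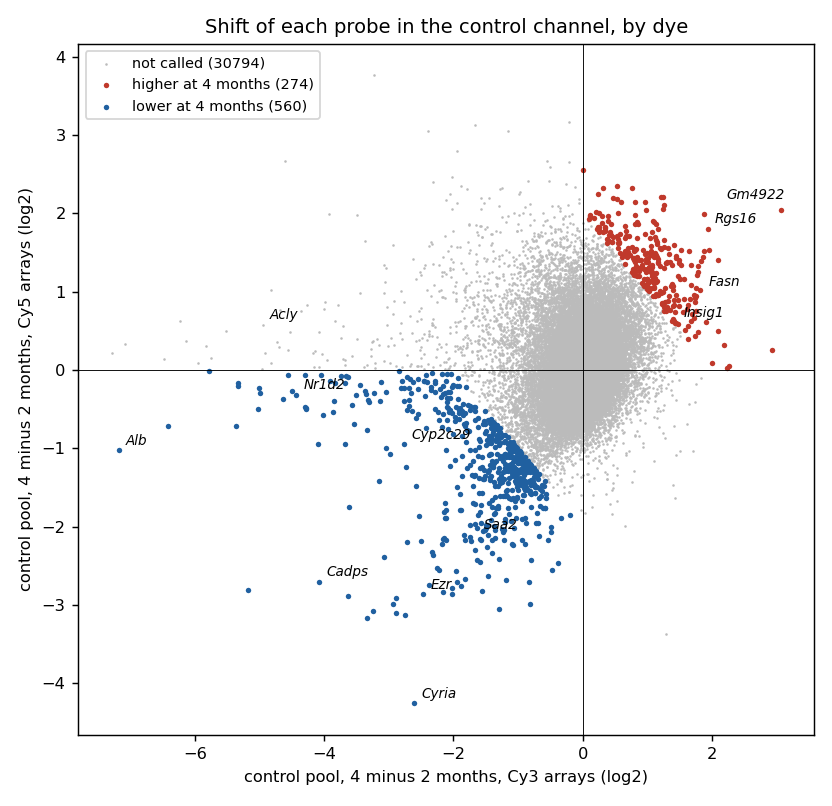
Each point is 1 of the 31628 kept probes, with its 4 minus 2 month shift in the control pool on the Cy3 arrays (x axis, log2) and on the Cy5 arrays (y axis, log2). The 274 higher probes (red) and 560 lower probes (blue) lie in the corners, and Alb, Nr1d2 and Acly lie far lower on the Cy3 arrays than on the Cy5 arrays.

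Shifts differed between the pairs of arrays. Over the kept probes the shift on the Cy3 arrays and the shift on the Cy5 arrays had a Pearson correlation of 0.18 (31628 probes, which share channels and are not independent). The control shift in Cy3 and the alcohol shift in Cy5, which come from the same pair of arrays, had a correlation of 0.91 across 31441 probes, and the other pair gave 0.87. Of the 270 higher probes that were also well above background in the alcohol channels, 267 had an alcohol shift on the same side, and of the 545 such lower probes 541 did. The 2-fold rule was met in both pools by 169 probes (0.538%) for higher and by 424 (1.35%) for lower. The 2 channels of an array share spots, hybridization and dye normalization, so a shift common to both pools cannot be told apart from a difference between the arrays.

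Other probes for the same gene often did not share a call. For 56 higher probes another kept probe of the gene existed, which lay on the same side in 39 cases and was itself called in 15. For 134 lower probes the counts were 81 and 13, and the median shift of the other probes was -0.12.

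Bright probes lay lower at 4 months as a class. The median shift was -0.36 for levels between 4 and 4.5, -0.70 between 4.5 and 5 and -0.87 above 5, while it stayed between -0.01 and 0.01 in each bin below 4. Of the 858 probes at a level of 4 or more, 100 were called lower and 0 higher. For genes named in this range the shift after subtraction of a lowess curve of shift on level is also given. Of these 858 probes 11.7% were called lower, beside 1.77% of all kept probes. No probe was flagged as saturated in these channels. The 99th percentile of the control signal was 50437 and 35176 at 2 months and 50699 and 42779 at 4 months (Cy3 and Cy5). In Cy3 it thus hardly differed between the months, whereas the 75th percentile used for scaling was higher at 4 months. The cause of the lower level of bright probes was not tested.

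**Figure D2:**
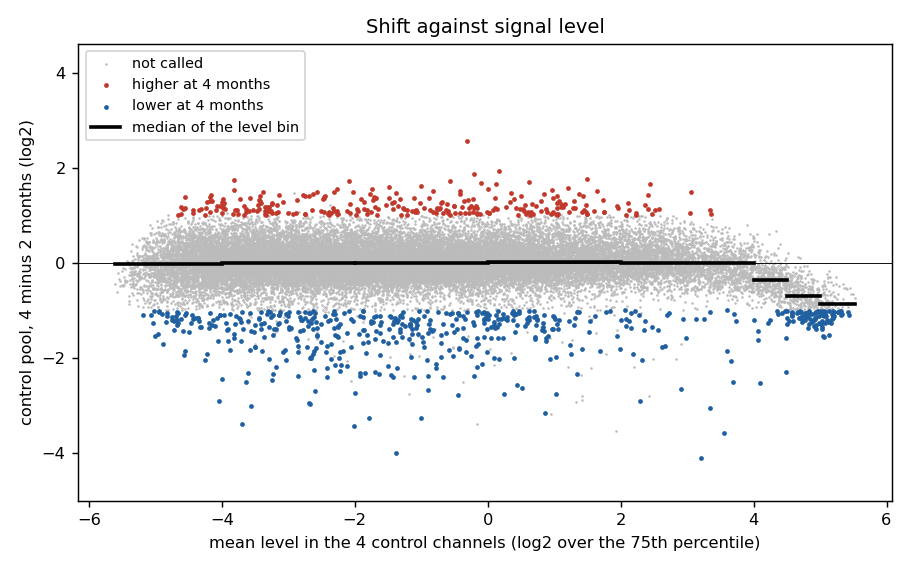
The 4 minus 2 month shift in the control pools (y axis, log2, mean of 2 dyes) is plotted against the mean level in the 4 control channels (x axis, log2 over the 75th percentile), with the median of each level bin as a black bar. The medians stay near 0 up to a level of 4 and reach -0.87 above a level of 5, where lower calls are dense.

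The list of cholesterol synthesis and uptake had a median shift above that of all kept probes. All 26 members were kept, of which 4 were called higher (beside 0.866% of all kept probes), among them Hmgcs1, Idi1 and Insig1, and 1 lower (beside 1.77%). Of the 26 members 20 were above 0 in both dyes and 1 below, beside 27.2% and 28.4% of all kept probes. Their median shift was 0.54 (0.75 in Cy3, 0.28 in Cy5), beside -0.01 over all kept probes, and the same members had a median of 0.29 in the alcohol pools.

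Insig1 encodes a sterol-sensing protein that retains the SREBP escort protein in the endoplasmic reticulum and is itself a SREBP target. In the control pools its level was 2.10 and 1.82 after 2 months, against 3.55 and 2.42 after 4 months, a shift of 1.03 ± 0.60. A second Insig1 probe gave 1.09. The alcohol level of Insig1 was 2.79 and 1.97 at 2 months and 2.5 and 2.04 at 4 months, a shift of -0.11.

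Hmgcs1, HMG-CoA synthase, went from -0.76 and -0.33 to 0.52 and 0.55 in the control pool, a shift of 1.08 ± 0.29, while its alcohol shift was 0.47. A second Hmgcs1 probe gave 1.2, and another of low level gave -0.01. Idi1, isopentenyl-diphosphate isomerase, went from 1.60 and 1.85 to 3.03 and 2.45, with a shift of 1.02 ± 0.58 in the control and 1.17 in the alcohol pools. The first members not called in list order were Sqle (0.61), Fdft1 (0.60), Fdps (-0.24) and Lss (0.69), which had alcohol shifts of 0.65, 0.60, -0.32 and 0.73. Another Fdps probe gave 0.56, opposite in direction, and other Lss probes gave 0.48 and -0.05. Sc5d, sterol-C5-desaturase, was called by its RefSeq-matched probe, with -0.35 and -0.10 at 2 months and 1.54 and 1.43 at 4 months (shift 1.70 ± 0.25, alcohol 1.87). Its brighter unmatched probe, the one entered in the list, gave 0.58 in the control and -0.01 in the alcohol pools.

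**Figure D3:**
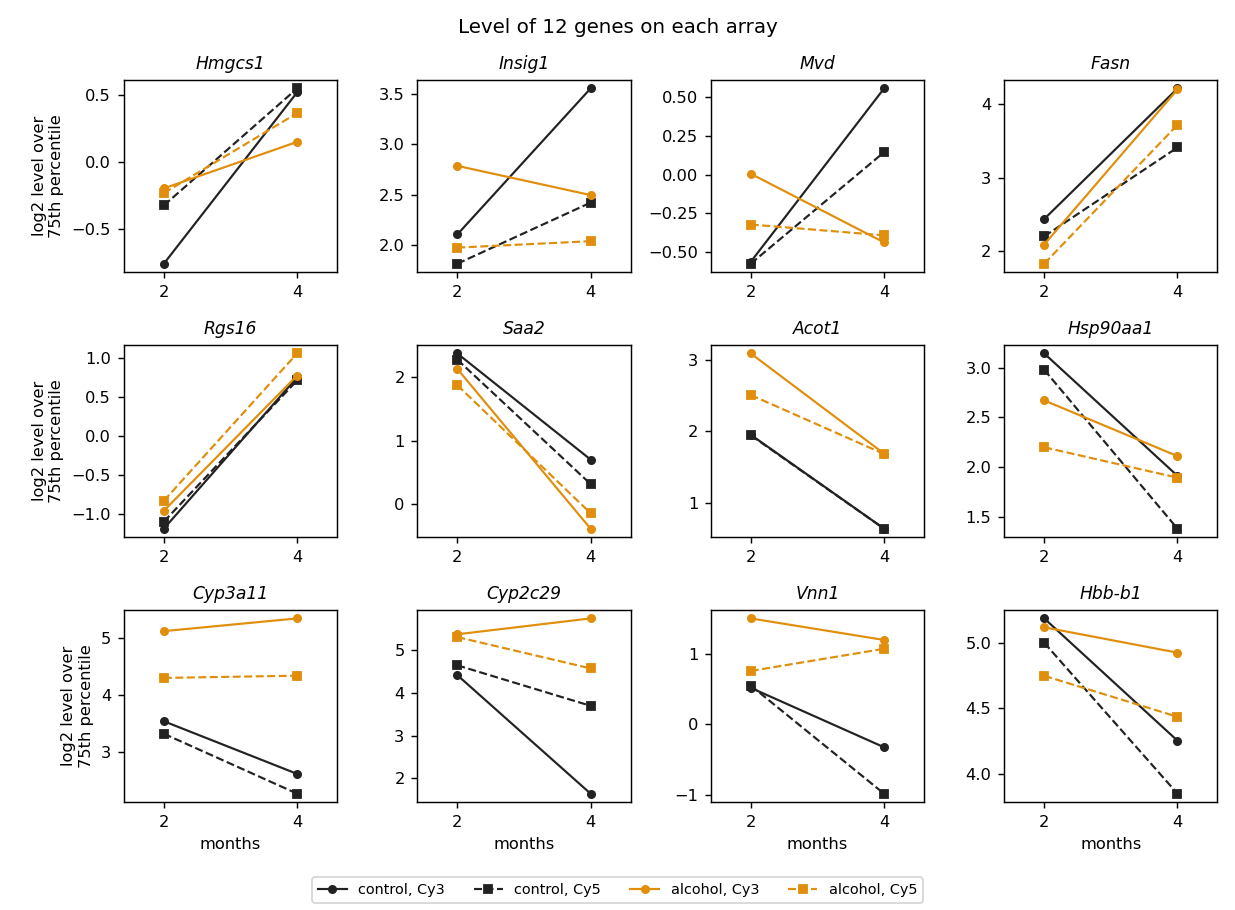
The level of 12 genes (y axes, log2 over the 75th percentile, scaled per gene) at 2 and 4 months (x axis) is drawn per array, control in black and alcohol in orange, Cy3 as circles with solid lines and Cy5 as squares with dashed lines. The black Hmgcs1 and Insig1 lines slope up and the black Cyp3a11 lines slope down more than the orange ones, and Rgs16 and Saa2 slope alike in both pools.

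The 2 pools on the same arrays can also be set against each other. The control shift minus the alcohol shift of the same pair of arrays was at least 2-fold in the mean and on the same side on both pairs for 26 probes on the higher side (0.0827% of 31441) and 41 on the lower side (0.130%). This rule was chosen after seeing the data, and a relative value can come from either pool. Only 4 of the 26 were also called higher in the control pool by itself, and both probes of Insig1 were among them. The relative shift of the brighter Insig1 probe was 1.38 on 1 pair of arrays and 0.90 on the other. Mvd, mevalonate diphosphate decarboxylase, was chosen after its values were seen and had a relative shift of 1.18, from a control shift of 0.92 and an alcohol shift of -0.26. Only 6 of the 41 were called lower in the control pool by itself, namely Cyp2c29, Cyp2a5, Vnn1, Xlr4b and 2 probes of Myc. Xlr4b and Myc were likewise named after their values were seen. The Myc probes, for the growth regulator MYC, had control shifts of -1.11 and -1.05 and alcohol shifts of 0.42 and 0.22. The brightest Myc probe was not one of them, at 0.36 (0.67 after lowess subtraction) in the control and 0.31 in the alcohol pools.

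**Figure D4:**
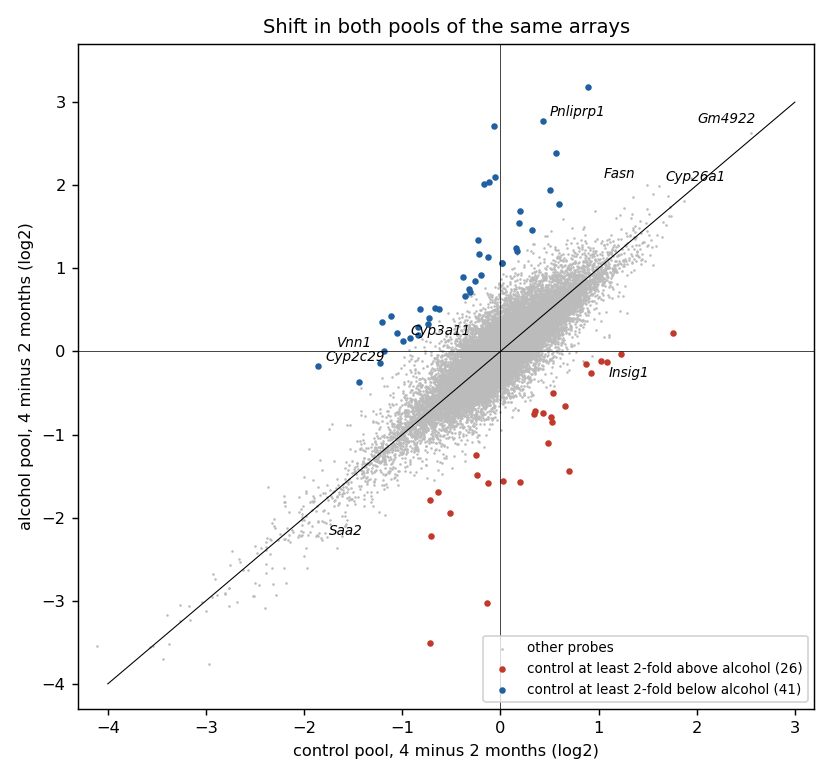
The shift from 2 to 4 months is plotted for the control pool (x axis, log2) and the alcohol pool (y axis, log2) over 31441 probes, with the line of equal shift. Most probes follow the line; Insig1 lies below it among 26 probes (red), and Cyp2c29, Cyp3a11 and Vnn1 lie above it among 41 (blue).

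Cytochrome P450 genes of families 1 to 3 had shifts mostly below 0 in the control pools, although few reached 2-fold. Of 49 listed genes 37 were kept, with 26 below 0 in both dyes and 7 above, beside 28.4% and 27.2% of all kept probes. The median was -0.40 (-0.42 in Cy3, -0.43 in Cy5) in the control pools and 0.01 in the alcohol pools. Cyp2b13 was called higher, and Cyp2c29 and Cyp2a5 lower, beside 0.866% and 1.77% of all kept probes.

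Cyp3a11, a major steroid and drug hydroxylase that PXR induces, had a control level of 3.54 and 3.32 at 2 months and 2.61 and 2.27 at 4 months. Its shift of -0.99 ± 0.09 lay just under the 2-fold rule. In the alcohol pools it was 5.12 and 4.30 at 2 months and 5.34 and 4.34 at 4 months. Cyp3a16 (-0.84) and Cyp3a44 (-0.74), close relatives of Cyp3a11, had alcohol shifts of 0.29 and 0.33, and a dim second Cyp3a44 probe gave -0.38 in the control and 0.89 in the alcohol pools. Cyp3a41a, the fourth of this kind, was -0.93 in the control and 0.01 in the alcohol pools. These 4 genes are similar in sequence, so probes may share signal between them.

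Cyp2c29, an arachidonic acid epoxygenase, was at 4.41 and 4.64 at 2 months and at 1.65 and 3.7 at 4 months. The direction held on both pairs of arrays, but the size did not, at -2.77 and -0.95 (mean -1.86 ± 1.29). Its alcohol shift was 0.37 in Cy3 and -0.73 in Cy5. Cyp2a5, coumarin hydroxylase, was 4.37 and 4.31 and then 2.16 and 4.07, so its call (-1.23 ± 1.39) rested on the Cy3 arrays, and its other probe gave -0.41. Cyp2b13, a female-predominant steroid hydroxylase, went from -0.95 and -0.61 to 0.84 and 0.72 (1.56 ± 0.33), with 1.04 in the alcohol pools, and its second probe gave 0.30. Cyp1a2 (-0.37, or 0.07 after lowess subtraction), Cyp1b1 (0.31), Cyp2a4 (0.60) and Cyp2a12 (-0.49) were the first members not called by the probe entered in the list. Another Cyp2a4 probe, at 1.06, met the rule for higher. Relative to the alcohol pool on the same arrays, 7 members of the list were lower by the rule above (Cyp2b10, Cyp2c29, Cyp2c70, Cyp2a5, Cyp3a11, Cyp3a16 and Cyp3a44) and 0 were higher, beside 0.130% and 0.0827% of all probes compared in this way.

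Vnn1, pantetheinase and a PPAR-alpha target, went from 0.52 and 0.55 to -0.32 and -0.98 in the control pool (-1.19 ± 0.49). In the alcohol pool it was 1.5 and 0.76 and then 1.2 and 1.07, with a mean shift of 0.00.

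The list of acute phase proteins had a median shift below that of all kept probes. All 28 members were kept, of which 5 were called lower (Saa2, Saa3, Saa4, Lcn2 and Fgb, beside 1.77% of all kept probes) and 0 higher. Of the 28 members 23 were below 0 in both dyes and 2 above, beside 28.4% and 27.2% of all kept probes. The median was -0.82, beside -0.50 after lowess subtraction and -0.54 in the alcohol pools.

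Saa2 was at 2.37 and 2.28 at 2 months and 0.70 and 0.32 at 4 months, 3.52-fold lower. Saa3 went from 3.61 and 3.39 to 2.03 and 1.44, 3.40-fold lower, and Lcn2, which binds bacterial siderophores, from -1.39 and -1.76 to -2.66 and -3.19, 2.56-fold lower. The alcohol shifts of these 3 genes were -2.27, -2.23 and -1.59. Saa4 (-1.05) and Fgb, the fibrinogen beta chain (-1.04), are bright and came to -0.64 and -0.58 after lowess subtraction, and another Saa4 probe gave -0.66. Saa1 (-0.87, or -0.48 after lowess subtraction, with a dimmer probe at -1.74), Orm1 (-0.11), Orm2 (-0.46) and Orm3 (0.18) were the first members not called. The Saa genes share sequence, so that the probe of one may bind RNA of another.

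On the list of heat shock and endoplasmic reticulum stress 28 of 29 members were kept, with 4 lower (Hspa8, Hsp90aa1, Hsp90ab1 and Hsph1, beside 1.77% of all kept probes) and 0 higher. Of the 28 members 18 were below 0 in both dyes and 4 above. The list median was -0.29, and -0.19 in the alcohol pools.

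Hsph1, a nucleotide exchange factor of HSP70, was at 1.67 and 1.69 at 2 months and 0.36 and -0.07 at 4 months (-1.54 ± 0.31). Its alcohol shift was -0.89. Hsp90aa1, the stress-inducible HSP90, went from 3.15 and 2.98 to 1.91 and 1.38 (-1.42 ± 0.26), and in the alcohol pool from 2.67 and 2.20 to 2.11 and 1.89 (-0.43). Hspa8 and Hsp90ab1 are bright, and their shifts of -1.03 and -1.11 came to -0.57 and -0.54 after lowess subtraction. Other probes of Hspa8 and Hsp90ab1 gave -1.02 and -0.81. The first members not called were the chaperones of the endoplasmic reticulum Hspa5 (-0.34), Hsp90b1 (-0.56, or -0.23 after lowess subtraction), Dnajb9 (-0.09) and Dnajc3 (-0.25).

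PPAR-alpha targets and fatty acid oxidation genes were below 0 in both dyes for 33 of 44 kept members and above in 4, beside 28.4% and 27.2% of all kept probes. The median was -0.42, -0.40 after lowess subtraction and -0.36 in the alcohol pools. Acot1, Acot3, Acot4, Fabp1, Vnn1 and Cidec were called lower, 6 of 44 beside 1.77% of all kept probes, and 0 members higher. Acot1, a cytosolic acyl-CoA thioesterase, was at 1.95 in both dyes at 2 months and at 0.64 in both at 4 months (-1.31). Acot3 and Acot4, its paralogs, had shifts of -1.13 ± 0.24 and -1.21 ± 0.36 (-0.47 by another Acot4 probe), and Cidec, a lipid droplet protein, -1.08 ± 0.06. The alcohol shifts of Acot1, Acot3, Acot4 and Cidec were -1.11, -1.47, -1.33 and -1.53. Fabp1, the liver fatty acid binding protein, was -1.56 ± 0.58 and -0.98 after lowess subtraction. Ppara itself (-0.30), Ehhadh (0.08) and Acaa1a (-0.81, or -0.29 after lowess subtraction) were not called.

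**Figure D5:**
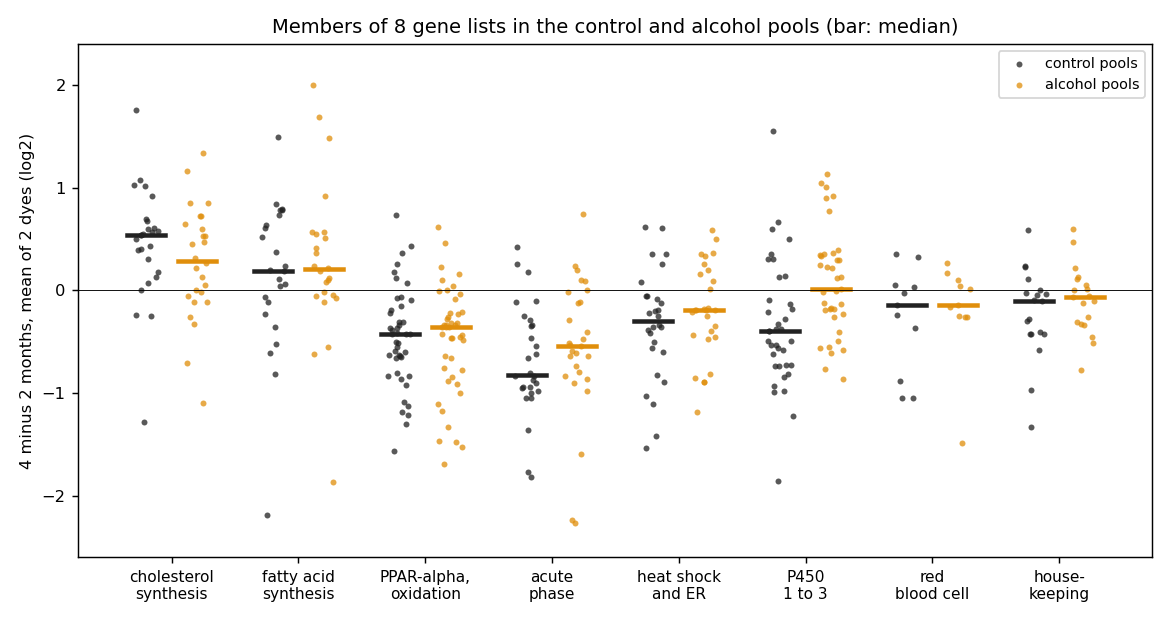
Each point is a kept member of 1 of 8 gene lists, with its 4 minus 2 month shift (y axis, log2, mean of 2 dyes) in the control pools (black) and the alcohol pools (orange), and bars mark medians. The cholesterol synthesis median is 0.54 in the control and 0.29 in the alcohol pools, and the P450 median is -0.40 and 0.01.

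Fatty acid synthesis had 1 of 24 kept members called higher, Fasn (beside 0.866% of all kept probes), with a list median of 0.19 and 11 members above 0 in both dyes against 3 below. Fasn, fatty acid synthase, went from 2.44 and 2.20 to 4.21 and 3.41 in the control pool (1.49 ± 0.40, 2.82-fold), and its second probe gave 1.51. Its alcohol shift was 2.0. Acaca (-0.11), Acacb (0.78) and Scd1 (-0.36, or -0.03 after lowess subtraction) were not called, and the other probes of Acaca gave 0.51, 0.62 and -1.44. Acly, ATP citrate lyase, was -4.96 on the Cy3 arrays and 0.58 on the Cy5 arrays, and so failed the rule on direction. Chosen after their values were seen, the regulator Srebf1 (0.73), the elongase Elovl5 (0.84) and the acyltransferase Gpam (0.79) had alcohol shifts of 1.49, -0.11 and 0.10.

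Hepatocyte markers were bright at both months. Of 10 markers 9 were kept, at a median level of 4.4, and Alb, Apoa1 and Fgb were called lower, beside 1.77% of all kept probes and 11.7% of those at a level of 4 or more. Serpina1a had no probe kept. The summed linear level of the kept markers, in units of the 75th percentile, went from 213.4 to 102.1 in Cy3 and from 251.3 to 157.9 in Cy5 (2 to 4 months). For the alcohol pools the sums went from 254.4 to 147.5 in Cy3 and from 244.6 to 152.3 in Cy5. These sums are not lowess-adjusted, are weighted to bright probes and include the low Alb values described below. Whether hepatocyte RNA changed as a whole was not tested. The median shift of the markers was -0.56, or -0.12 after lowess subtraction. Alb, albumin, was at 5.31 and 5.23 at 2 months and at -1.88 and 4.2 at 4 months. On the 4-month array with the low control value the alcohol channel was low as well, with an alcohol shift of -6.10 in Cy5, so the Alb value followed this array in both pools. The clock repressor Nr1d2 behaved in the same way, with control shifts of -4.44 and -0.32 and an alcohol shift of -4.28 in Cy5 on the array pair of the first.

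Further lists of bright genes had calls that shrank with the lowess curve. On the apolipoprotein list 25 of 26 members were kept, Apoa1, Apoa4, Apoc1 and Apoe were called lower (beside 1.77% of all kept probes, or 11.7% of those at a level of 4 or more) and the median was -0.31, or -0.04 after subtraction. The shifts of Apoa1, Apoa4 and Apoc1 were -1.09, -1.18 and -1.15, and came to -0.52, -0.69 and -0.53. Apoe, the ligand for remnant uptake, was at 5.26 and 6.51 at 2 months and 3.59 and 5.17 at 4 months, with -1.51 before and -0.90 after subtraction. On the antigen presentation list (12 members, median -0.28) H2-K1, H2-D1 and H2-T23 were called lower (beside the same shares) at -1.28, -1.01 and -1.21, and came to -0.71, -0.53 and -0.66. Other H2-K1 probes gave -0.82 at a level of 4.83 and 0.45 at a level of 3.14, the latter opposite in direction, and a dim H2-D1 probe gave 0.82, also opposite. Of 19 kept housekeeping genes (median -0.10) 1 was called lower, beside 1.77% of all kept probes. Ribosomal protein genes, 49 kept, had a median of -0.36, -0.16 after subtraction and 0 calls.

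Sex-dependent genes of the liver, which follow the growth hormone pattern, differed by list. Of 26 kept male-predominant genes 20 were below 0 in both dyes and 1 above, the median was -0.52 (-0.36 after lowess subtraction, -0.83 in the alcohol pools), and Serpina1e was called lower (1 of 26, beside 1.77% of all kept probes) at -1.10, or -0.40 after subtraction. The first members not called were Hsd3b5 (-0.72), Cyp4a12a (-0.49), Cyp2d9 (-0.53, or 0.18 after lowess subtraction) and Cyp7b1 (-0.78), with alcohol shifts of -3.50, -0.81, -0.61 and -1.0. Relative to the alcohol pool 3 of the 26 members were higher (beside 0.0827% of all probes compared) and 0 lower, namely Hsd3b5 (2.78) and, named after their values were seen, Elovl3 (1.77) and Mup3 (1.46). Another Cyp4a12a probe, at -0.71 in the control and -2.22 in the alcohol pools, also met that rule. The 33 kept female-predominant genes had a median of -0.04 (0.29 in the alcohol pools), with Cyp2b13 and Hao2 higher and Acot3 and Acot4 lower, beside 0.866% and 1.77% of all kept probes. Relative to the alcohol pool 5 of the 33 were lower, among them Cyp2b10, Cyp3a16 and Cyp3a44, beside 0.130% of all probes compared, and 0 were higher. Hao2, a peroxisomal hydroxy acid oxidase, went from -3.66 and -3.25 to -2.40 and -1.68 (1.41 ± 0.22, alcohol 1.29). On the growth hormone and IGF axis 22 members were kept at a median of -0.18, with 1 called lower, beside 1.77% of all kept probes. This was Cish, an inhibitor of STAT5 signaling, at -1.45 ± 1.02, with -2.17 on 1 pair of arrays and -0.73 on the other. Its mean level was low, at -3.52. Xist and Y-linked genes, 6 kept, had a median of 0.05 and 0 calls.

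Clock genes had 1 call, the Nr1d2 value above, beside 1.77% of all kept probes called lower. They comprised 20 kept repressor and output genes (median 0.03) and 7 kept activator-side genes (median -0.32). Per1 (0.24), Per2 (-0.13), Per3 (0.13) and Dbp (0.14), whose levels follow the time of day, were not called, and a dimmer Per2 probe gave -0.52. Among 26 kept immediate early genes (median -0.05) Egr1 was called higher at 1.22 ± 0.36 and Fosb lower at -1.80 ± 0.36, beside 0.866% and 1.77% of all kept probes. Egr1 was dim, at -4.46 and -4.74 at 2 months and -3.49 and -3.26 at 4 months. Its alcohol shift was 0.48, and the control minus alcohol shift was 0.35 on 1 pair of arrays and 1.13 on the other. Fosb went from 0.25 and 0.71 to -1.30 and -1.35, with an alcohol shift of -1.71. Of 17 kept p53 and senescence genes (median 0.15) Cdkn2b, a cyclin-dependent kinase inhibitor, was higher at 1.40 ± 0.83 and Phlda3, a repressor of AKT, at 1.03 ± 0.53, with alcohol shifts of 1.2 and 0.36. These 2 of 17 stand beside 0.866% of all kept probes called higher.

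Of 17 red blood cell genes 11 were kept, at a median shift of -0.15. The globin genes Hbb-b1 and Hbb-bt were called lower (beside 1.77% of all kept probes) by their brightest probe, which stands for both. That probe was at 5.19 and 5.0 at 2 months and 4.25 and 3.85 at 4 months (-1.05 ± 0.15, -0.60 after lowess subtraction). All 4 probes of Hbb-b1 gave shifts below 0, between -0.79 and -1.2, including one at a level of 0.36, below the bright range. The probes at -1.20 and -1.07 also met the rule for lower. Hba-a1 was -0.88 by its brightest probe and 0.70 by another, opposite in direction. The alcohol shifts of the brightest Hbb-b1 probe and of the Hba-a1 probes were -0.25, -0.16 and 0.92. The summed linear level of the kept red cell genes was 100.4 and 91.6 at 2 months and 56.4 and 45.8 at 4 months. Alas2, the erythroid heme enzyme, was -0.24 in the control and -1.48 in the alcohol pools, which met the rule for higher relative to the alcohol pool (1.24). Hba-a2, Hbb-b2, Hbb-bs, Epb42 and Car2 were among the genes not kept. The part of red blood cells in the other results was not tested.

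T and NK cell markers (19 of 24 kept) had 0 calls and a median of 0.17, with a summed level of 32.1 and 26.8 at 2 months and 35.8 and 40.9 at 4 months. Its members disagreed, with Cd3d at -0.83, Cd3e at -0.46 (0.43 by a dim probe) and Cd3g at 0.90. Macrophage markers (25 kept, median -0.03), immunoglobulin and plasma cell markers (13 kept, median 0.22) and cholangiocyte markers (16 kept, median 0.15) had 0 calls. Of 11 kept neutrophil markers Mpo, myeloperoxidase, was higher at 1.25 ± 0.35 and Lcn2 lower, and the defining S100a9, Ngp and Camp were -0.29, 0.70 and 0.63. Among 21 endothelial markers (median 0.06) Lyve1 was called lower at -1.04 ± 0.27, and among 18 stellate markers (median 0.01) Bambi at -1.43 ± 0.38, whose second probe gave -0.26. Adipose genes (14 kept, median -0.05) had Cidec as the 1 call, and muscle and kidney genes (14 kept, median 0.19) and pancreas acinar genes (22 kept, median 0.14, or 0.52 in the alcohol pools) had 0. Their summed levels were 142.1 and 110.9 against 87.9 and 95.6 for adipose, 20.9 and 19.9 against 29.7 and 31.1 for muscle and kidney, and 40.1 and 38.6 against 42.9 and 45.0 for acinar genes (2 against 4 months).

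Other lists had no more than 1 call each, and these calls and those of the cell type markers above stand beside 0.866% higher and 1.77% lower over all kept probes. Interferon-induced genes (34 kept, median -0.09) and chemokines (23 kept, median 0.15) shared the call of Cxcl9, which attracts lymphocytes, at -1.03 ± 0.36. Cell cycle genes (30 kept, median 0.11) had E2f8 lower at -1.24 ± 0.28. There were 0 calls among fetal and postnatal genes (median -0.03), gluconeogenesis and fasting (0.17), bile acids (-0.12), glutathione transferases and NRF2 targets (-0.09), metallothionein and iron genes (-0.25), urea cycle (-0.14), respiratory chain (-0.22), extracellular matrix (-0.07), hepatocyte transcription factors (-0.22), ethanol oxidation (-0.14) and conjugating enzymes (-0.27). In all, 20 of 44 lists had no called member, and their medians lay between -0.36 and 0.22.

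The genes with the largest change in their weaker dye were ranked across the array. On the higher side the 15 genes included Gm4922, Mcrip1, Rgs16, Sc5d, Cd63, Atp6v1c2, Defb6, Cyp26a1, Smox, Ren1, Cyp2b13, Adam6b, Fank1 and Hao2. Rgs16, a regulator of G protein signaling, was at -1.18 and -1.09 at 2 months and 0.75 and 0.71 at 4 months (3.66-fold). Cyp26a1, the retinoic acid hydroxylase, went from -1.79 and -1.83 to 0.04 and -0.44 (3.06-fold). Ren1, renin, went from 1.70 and 1.69 to 3.22 and 3.03, and Cd63, a tetraspanin of late endosomes, from 0.30 and 0.12 to 1.82 and 1.65. The alcohol shifts of Rgs16, Cyp26a1, Ren1 and Cd63 were 1.81, 1.99, 1.05 and 1.34. The alcohol shifts of the genes named here on the higher side lay between 1.04 and 2.63.

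On the lower side the 15 genes were Cadps, Cyria, Ezr, Jam3, Taf7l, Trpc1, H2ac4, Nrep, Rnf138rt1, Pou1f1, Tub, Drd1, Rad51c, Efcab6 and Ydjc. Several are known from other tissues, such as the pituitary factor Pou1f1, the dopamine receptor Drd1 and the neuronal vesicle protein Cadps. Cyria was at -0.92 and 0.34 at 2 months and -3.54 and -3.92 at 4 months, Ezr (ezrin) at 0.37 and 0.49 and then -2.10 and -2.38, and Jam3 at 1.62 and 1.83 and then -0.77 and -0.93. All 15 were lower in the alcohol pools too, between -1.51 and -3.7. In the control pool of 1 month, on the other slide, Cyria was at -5.11, Ezr at -3.75 and Jam3 at -0.70. Kept second probes of Cadps (0.01), Taf7l (-0.06) and Tub (0.25) did not share the shift, whereas the second probe of Nrep did (-1.83).

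Probes seen in a single month only numbered 45 at 2 months and 605 at 4 months, of 41174 on the array. They were well above background on both arrays of that month and neither of the other. Detection itself differed, with 82.0% and 78.7% of all probes well above background at 2 months and 82.2% and 86.6% at 4 months (Cy3 and Cy5). The fold was read as a limit on loess and Aquantile normalized channels, a scale open to dye bias. The median limit was 1.89-fold for the 45 and 1.22-fold for the 555 among the 605 that gave one. The limit was at least 2-fold for 16 of the 45 and for 16 of the 555. Among the former, Dtl, of the replication licensing pathway, was at least 2.88-fold higher and Areg, amphiregulin, at least 2.20-fold higher at 2 months. None of the latter matched a RefSeq gene.

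Genes that the study names from its alcohol comparison were also read in the control pools. Igfbp1, an IGF binding protein, was at 1.34 and 1.44 at 2 months and 1.13 and 1.46 at 4 months (-0.10 ± 0.16, alcohol 0.67). The dye values of the pools thus overlapped, which does not speak to a difference across mice. Gadd45b was -0.11 in the control and 0.65 in the alcohol pools, with -0.20 and 0.91 by a dimmer probe. Cyp2b9 (0.14), Cyp2b10 (-0.13) and Cyp2a4 (0.60) had alcohol shifts of 0.90, 1.13 and 0.92. The other probes of Cyp2b10 and Cyp2a4 gave 0.52 and 1.06, the former opposite in direction. Pnliprp1, a pancreatic lipase-related protein, was 0.43 in the control and 2.77 in the alcohol pools. Jun, Reg2 and Reg3d were not above background on all 4 control channels.

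The 1-month control pool lay on another slide, so its values stand only beside the others. Mean levels at 1, 2 and 4 months were 2.91, 1.96 and 2.99 for Insig1. For Fasn they were 5.25, 2.32 and 3.81. Cyp3a11 gave 4.17, 3.43 and 2.44, and Cyp2c29 gave 4.47, 4.53 and 2.67. Saa2 gave 0.82, 2.33 and 0.51, which places the 2-month pool highest, and Hsp90aa1 likewise gave 2.08, 3.06 and 1.64.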

How the data were processed

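Arrays were scanned and processed by the authors with Agilent Feature Extraction 9.1.1.1. The authors deposited for each spot the signal intensity of both channels after background subtraction and dye normalization, which ties the control channel to the alcohol channel of its array, and the mean signal and local background intensity. A deposited table of log ratios was not used. Control spots (1639 of 45018) were left out and spots of a probe averaged. RefSeq accessions are given for 25510 of the 41174 probes, and 22951 were matched to a current symbol of GRCm38.p6; other probes kept the array's name.

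Each control channel was divided by its 75th percentile, and shifts were computed on the log2 scale. No test was run. Where a gene had several kept probes, the brightest was used. Named genes were the 15 genes per direction with the largest change in the weaker dye, the called members of 44 gene lists with up to 4 others in list order, and genes the study names; some of these genes are not reported here. The members and lists were chosen with earlier results of these data known. The lowess span was 0.2. Alternatives used limma 3.58.1 (R 4.3.3, normexp offset 50), Python 3.11.15, pandas 2.3.3 and statsmodels 0.14.6, and the steps were tested on simulated data. Probe sequences were not used here.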

Additional observations from a re-analysis of the deposited data

Results flagged for a closer look

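For 4 genes that the study names, the shift from 2 to 4 months was below 0 in both dyes in the control pools and above 0 in both dyes in the alcohol pools. The difference between the pools was not tested, since each is 1 pool a month. The control shift was -0.99 for Cyp3a11, -0.84 for Cyp3a16, -0.74 for Cyp3a44 and -0.11 for Gadd45b, where the alcohol shifts were 0.13, 0.29, 0.33 and 0.65. For Gadd45b the control shift was -0.22 in Cy3 and -0.0041 in Cy5 (SD of the 2 dyes 0.15), so it lay near 0 in Cy5.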

How the results depend on the processing

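The count of 274 higher and 560 lower probes stayed within 1.5 times under the scalings by the median and by the kept probes, quantile normalization, lowess subtraction, both normexp settings, distinct gene names, leaving out saturated probes and a mean rule without direction, at 209 to 299 higher and 394 to 651 lower. Of the calls, 250 higher and 448 lower remained after lowess subtraction, 179 and 456 under normexp without dye normalization, and 191 and 364 under normexp with loess and Aquantile. It moved further with a single dye, where the Cy3 arrays alone gave 1447 lower (391 higher) and the Cy5 arrays alone 1588 higher (621 lower). Filters on dim probes gave 602 higher (732 lower) when both arrays of 1 month were enough, and 981 higher and 1162 lower with no filter. A 1.5-fold rule gave 1879 and 1851, and 2-fold in each dye 102 and 240. Relative to the alcohol pool, chosen after seeing the data, 26 and 41 were called. Without probes at a level of 4 or more, also chosen after seeing the data, 274 and 460 were called. The causes were not tested. Of 976 recomputed values for 84 named genes, 869 moved by no more than the SD of the 2 dyes, 107 moved further and 0 of the called genes turned sign. A call requires both dyes on the same side, so a single dye could not turn the sign of a called gene. The filters on dim and saturated probes did not recompute the shift of a probe. These settings therefore could not show a reversal. Of 528 list medians 81 moved further, and 37 values of 17 lists lay on the other side of 0. No paired analysis was possible because 1 pool a month leaves no test. Signal over background limits dim genes such as Egr1 and Cxcl9.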
